A study of Homo sapiens with 12 samples.

Results

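The cells described here were U2OS human osteosarcoma cells transfected with siRNA against NCoR (siNCoR) and compared with U2OS cells transfected with a scramble siRNA (siCtl), both left without cisplatin (CDDP). The arrays were chosen by their titles, as siNCoR or siCtl cells without treatment, which gave 4 of the 12 arrays of the series, 2 per group. The whole series crossed siCtl, siNCoR and siRNA against SMRT (siSMRT) with CDDP at 100 µM for 6 h or no CDDP, with 2 arrays in each of 6 groups, and RNA was hybridized to Illumina BeadChip expression arrays. All groups shared the same cell line and the same transfection with siRNA, so every array comes from transfected cells and none from untouched cells. The arrays of a group are described as biological replicates in a figure legend of the study, and a pool of siRNAs was used for each target. The other 8 arrays were used to estimate the spread and to ask whether the effect recurred under CDDP or with siSMRT.

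NCoR is a corepressor, a large scaffold protein with no known catalytic activity of its own that transcription factors such as unliganded thyroid hormone and retinoic acid receptors use to keep target genes silent. It recruits the deacetylase HDAC3 and activates it, together with TBL1X, TBL1XR1 and GPS2, and shares this complex with its close relative SMRT. Through BCL6, REV-ERB and other partners the complex is also known for roles in inflammation, lipid metabolism and the circadian clock. Loss of a corepressor is therefore usually followed on genes that rise, although genes that fall are commonly seen as well.

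The transcript of NCoR itself, from the gene NCOR1, is not analysed here, so the values below do not check the extent of the knock-down or the labels. The partners of NCoR were measured: 8 of 11 genes listed for the complex were tested and none passed the test. BCL6, the DNA-binding repressor that recruits NCoR in lymphoid cells, was 8.77 and 9.04 in siCtl and 8.40 and 8.61 in siNCoR arrays on the normalized log2 scale (difference -0.39 ± 0.15 SE, adjusted p = 0.161). KDM4A, a histone demethylase found with the complex, was 6.49 and 6.52 in siCtl and 6.09 and 6.33 in siNCoR arrays (difference -0.29, adjusted p = 0.3). The other 6 members, HDAC3, TBL1X, GPS2, CORO2A, ZBTB33 and SPEN, had differences between -0.06 and 0.09, and the probe of TBL1XR1 was not above the signal floor of 100 in both arrays of any group. The listed deacetylases and the other listed corepressors also gave no call, in 7 and 20 genes tested, apart from 1 rise among the deacetylases in the fit that pairs arrays by replicate number.

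U2OS cells derive from bone, and SPP1 and RUNX2, a bone matrix protein and the bone master regulator, were both above the floor in at least 1 group. Of 16 bone lineage markers 7 were tested, and the mature markers BGLAP, IBSP and SP7 were not above the floor. The median difference over all 9808 genes tested was 0.00 (log2) and the median SE of a gene was 0.11. Replicate arrays correlated at 0.994 to 0.995 over all probes and 27.0 to 31.4% of probes per array were above a raw signal of 100. A probe's brightness measures the RNA of the whole culture, so less RNA per cell and fewer expressing cells cannot be told apart.

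A total of 291 genes were higher and 225 lower in siNCoR than in siCtl cells (limma with Benjamini-Hochberg adjustment over 9808 genes, adjusted p under 0.05), which is 2.97% and 2.29% of the genes tested and 5.26% in either direction. Rises were larger than falls: 42 genes rose and 7 fell by over 1 log2 unit, and 140 genes were at least 1.5-fold higher (1.43%) and 76 lower (0.775%), or 2.2% in either direction. The median called rise was 0.58 and the median called fall -0.52 on the log2 scale. In all 516 genes the siNCoR arrays did not overlap the siCtl arrays and both same-numbered pairs moved the same way. The shares over all genes tested were 50.2% and 69.3%. The 516 genes were called on these same arrays, so this separation follows largely from the call and adds nothing to it. Adding the pairing of arrays by replicate number to the fit (the block) raised the counts to 545 higher (5.56%) and 444 lower (4.53%), 10.1% of the genes in all, and included all 516. The counts depended on each array: they were 82 and 44 without siCtl replicate 1, 171 and 103 without siCtl replicate 2, 121 and 65 without siNCoR replicate 1, and 111 and 75 without siNCoR replicate 2. With only the 4 arrays in the fit 160 genes were higher and 98 lower.

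**Figure D1:**
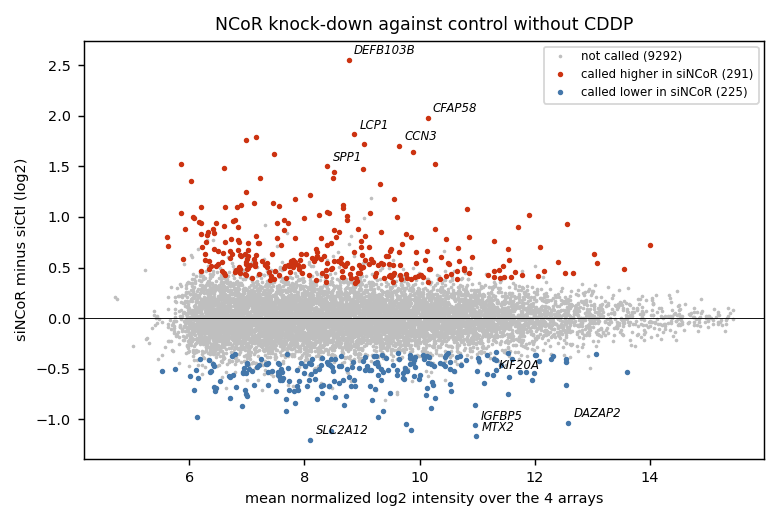
Difference in normalized log2 intensity, siNCoR minus siCtl without CDDP, against the mean log2 intensity over the 4 arrays, with 1 point for each of 9808 genes. The 291 genes called higher reach 2.55 and the 225 called lower reach -1.20.

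The 15 largest rises ran from 1.44 to 2.55 on the log2 scale. DEFB103B, a beta-defensin antimicrobial peptide, was 7.03 and 7.95 in siCtl and 9.37 and 10.72 in siNCoR arrays (difference 2.55 ± 0.54 SE, adjusted p = 0.0185). Both siNCoR arrays were above both siCtl arrays, but the replicates of each group also lay far apart, its other probe had a difference of 1.30, and the gene has a near-identical copy that the probes may not tell apart. CFAP58, a protein of cilia and flagella, was 8.86 and 9.44 in siCtl and 11.06 and 11.19 in siNCoR arrays (difference 1.98 ± 0.21, adjusted p = 4.51e-04). LCP1, the actin-bundling plastin of white blood cells that many tumour lines also express, was 7.83 and 8.09 in siCtl and 9.55 and 10.00 in siNCoR arrays (difference 1.82, adjusted p = 9.01e-04). In both genes the groups were well separated.

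GSG1, a germ cell gene, was 6.06 and 6.48 in siCtl and 7.94 and 8.18 in siNCoR arrays (difference 1.79 ± 0.13, adjusted p = 2.85e-05). Only 1 of its siCtl arrays was above the floor, and its other probes gave 0.93 and 1.63. CCN3, a matricellular growth regulator, was 8.77 and 8.80 in siCtl and 10.41 and 10.57 in siNCoR arrays (difference 1.70 ± 0.11, adjusted p = 1.55e-05). AFP, a serum protein of fetal liver, was 6.67 and 6.65 in siCtl and 8.41 and 8.15 in siNCoR arrays (difference 1.62 ± 0.11, adjusted p = 1.55e-05). In these 3 genes the replicates lay much closer to each other than to the other group. MYL2, a myosin light chain of heart muscle, was 9.35 and 9.65 in siCtl and 11.09 and 10.97 in siNCoR arrays, and SPP1, the secreted phosphoprotein osteopontin, was 7.86 and 7.43 in siCtl and 9.23 and 9.06 in siNCoR arrays. Their differences were 1.53 and 1.5 (adjusted p = 6.06e-05 and 0.00122).

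CLDN1, the tight junction protein claudin-1, was 7.82 and 8.52 in siCtl and 9.59 and 10.19 in siNCoR arrays (difference 1.72, adjusted p = 0.00141), and KRT34, a hair keratin, was 8.40 and 9.72 in siCtl and 10.29 and 11.11 in siNCoR arrays (difference 1.64 ± 0.41, adjusted p = 0.0391). The siCtl replicates of KRT34 lay far apart, and the gene was no longer called without siCtl replicate 1, without siNCoR replicate 1 or without siNCoR replicate 2. CST6, a secreted cysteine protease inhibitor, was 6.04 and 6.16 in siCtl and 8.19 and 7.55 in siNCoR arrays, and as both siCtl arrays were under the floor it was at least 3.02-fold higher in siNCoR cells. On the same basis MAL2, a protein of epithelial transcytosis, was at least 2.09-fold higher (5.86 and 5.85 in siCtl and 7.26 and 7.41 in siNCoR arrays). SPINK1, a trypsin inhibitor, was at least 1.27-fold higher (4.98 and 5.20 in siCtl and 6.12 and 7.12 in siNCoR arrays), with 1 of its siNCoR arrays above the floor. These bounds set the siNCoR mean against the floor of 100 on the array, brought to the normalized scale. AOX1, an aldehyde oxidase, and STMN2, a microtubule-destabilizing protein of neurons, completed the 15 largest rises at 1.47 and 1.44.

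**Figure D2:**
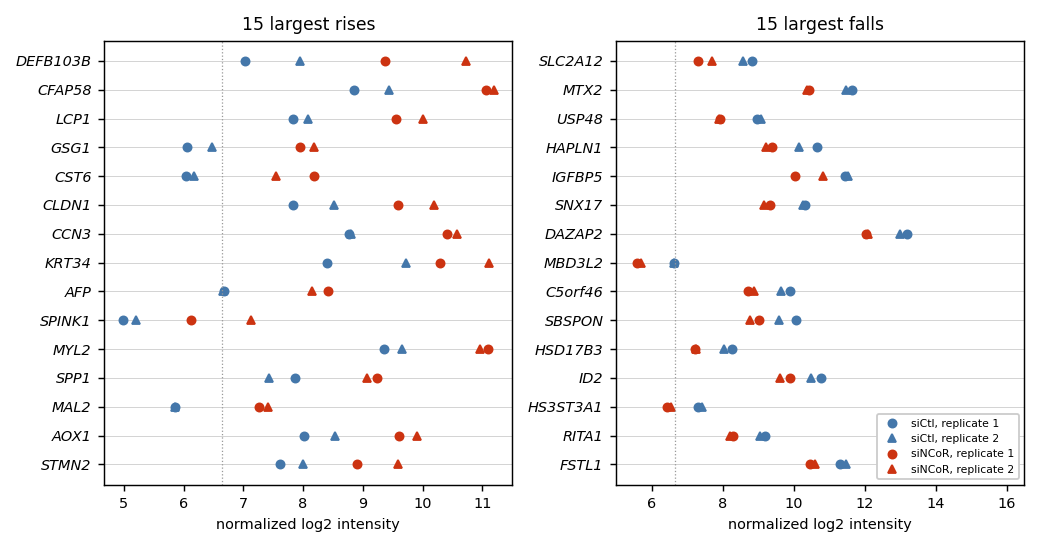
Normalized log2 intensity in each of the 4 arrays for the 15 largest called rises and the 15 largest called falls, circles for replicate 1 and triangles for replicate 2. The dotted line marks log2 of 100 before background correction (corrected values at the floor lie lower), and in every row the siNCoR symbols lie on 1 side of the siCtl symbols.

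The 15 largest falls ran from -0.86 to -1.20 on the log2 scale. SLC2A12, a glucose transporter, was 8.84 and 8.56 in siCtl and 7.32 and 7.68 in siNCoR arrays (difference -1.20 ± 0.13, adjusted p = 5.63e-04). MTX2, a protein of the mitochondrial outer membrane, was 11.65 and 11.48 in siCtl and 10.44 and 10.36 in siNCoR arrays (difference -1.17 ± 0.10, adjusted p = 7.42e-05), and USP48, a deubiquitinating enzyme, was 8.96 and 9.09 in siCtl and 7.93 and 7.89 in siNCoR arrays (difference -1.12, adjusted p = 5.63e-04). The 4 arrays of MTX2 and of USP48 split cleanly, with the replicates of a group close together. The other probe of MTX2 gave -1.22, but the 2 other probes of USP48 gave smaller differences of -0.45 and -0.29. SNX17, an endosomal sorting protein, and DAZAP2, a proline-rich adaptor that was among the brighter genes, differed by -1.04 and -1.03 (adjusted p = 8.20e-05 and 2.19e-04). DAZAP2 was 13.19 and 12.99 in siCtl and 12.03 and 12.08 in siNCoR arrays. RITA1, which binds the Notch effector RBPJ, was 9.18 and 9.04 in siCtl and 8.30 and 8.20 in siNCoR arrays (difference -0.86, adjusted p = 5.63e-04), while the listed Notch genes gave no call in 12 tested, or 1 rise and 1 fall with the block.

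Among secreted proteins, IGFBP5, an insulin-like growth factor binding protein, was 11.43 and 11.54 in siCtl and 10.04 and 10.82 in siNCoR arrays (difference -1.06 ± 0.23, adjusted p = 0.0239), and HAPLN1, a link protein that holds hyaluronan to proteoglycans, was 10.67 and 10.14 in siCtl and 9.38 and 9.23 in siNCoR arrays (difference -1.10, adjusted p = 0.0112). IGFBP5 lost its call without siCtl replicate 1, siCtl replicate 2 or siNCoR replicate 1 and kept it without siNCoR replicate 2. FSTL1, a secreted glycoprotein, differed by -0.86 and SBSPON, which carries somatomedin B and thrombospondin domains, by -0.92 (adjusted p = 0.00178 and 0.0103). ID2, which blocks basic helix-loop-helix factors, was 10.78 and 10.50 in siCtl and 9.91 and 9.61 in siNCoR arrays (difference -0.88, adjusted p = 0.00542). HSD17B3, a testosterone-forming enzyme, HS3ST3A1, a heparan sulfate sulfotransferase, and C5orf46 differed by -0.92, -0.87 and -0.97. MBD3L2, a relative of a methyl-CpG binding protein, was at least 1.27-fold lower, with both siNCoR arrays under the floor (6.61 and 6.62 in siCtl and 5.58 and 5.70 in siNCoR arrays). Of these 30 genes 20 were called without siCtl replicate 1, 29 without siCtl replicate 2, 26 without siNCoR replicate 1 and 24 without siNCoR replicate 2. Those lost without siCtl replicate 1 were DEFB103B, KRT34, SPINK1, STMN2, HAPLN1, IGFBP5, C5orf46, SBSPON, HSD17B3 and ID2.

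Histone genes were among the genes that rose. Most of them lie in dense clusters, encode the core histones made mainly in S phase, and mostly yield transcripts that end in a stem-loop without a poly(A) tail. Per the methods the RNA was labelled with the Illumina TotalPrep kit. Histone transcripts with and without a tail were not measured apart, so which of them changed was not tested. Of 29 histone genes tested, 9 were higher and 1 lower, beside 2.97% and 2.29% of all genes, and the median difference was 0.42 against 0.00 for all genes. Of the 29 differences 18 were positive and 11 negative. The block gave 14 higher and 1 lower, beside 5.56% and 4.53%. The family was chosen by symbol after its values were seen, and members are so alike that probes can cross-hybridize. A shorter histone list gave 5 higher and 0 lower of 16 tested, or 7 higher with the block. Its median was lower, at 0.17, with 9 positive and 7 negative differences. H2BC4, an H2B gene, was 7.22 and 7.27 in siCtl and 8.02 and 8.36 in siNCoR arrays (difference 0.94 ± 0.18, adjusted p = 0.0118), and H2AC6, the H2A gene that shares a divergent promoter with it, was 9.63 and 10.03 in siCtl and 10.55 and 10.87 in siNCoR arrays (difference 0.88 ± 0.18, adjusted p = 0.0161). The brightest of the 9 was H2BC12, at 13.47 and 13.81 in siCtl and 14.20 and 14.52 in siNCoR arrays (difference 0.72, adjusted p = 0.0402). In each of these 3 genes both siNCoR arrays lay above both siCtl arrays. H2BC5, H2BC6, H2BC11, H2BC21 and H3C4 rose by 0.80, 0.78, 0.78, 0.76 and 0.67, and H3C1 by 0.48. H4C8, an H4 gene, had a larger difference but also a larger spread, at 8.30 and 8.81 in siCtl and 9.41 and 10.07 in siNCoR arrays (1.18 ± 0.32, adjusted p = 0.0553, or 1.23e-05 with the block). The only fall was MACROH2A2, a macroH2A variant gene outside the clusters (11.33 and 11.16 in siCtl and 10.78 and 10.87 in siNCoR arrays, difference -0.42, adjusted p = 0.0289). The histone calls rested on all 4 arrays: none of the 29 was called without siCtl replicate 1 or without siNCoR replicate 2, and 5 were higher and 1 lower without siCtl replicate 2 and 4 higher without siNCoR replicate 1.

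The promoters of the raised histone genes are shown because all 9 held the CCAAT box that is typical of histone promoters. They are the 250 bases before the annotated start (RefSeq, GRCh38.p14, 5′ to 3′ on the gene's strand), with CCAAT or its reverse complement ATTGG in capitals. The H2BC4 promoter overlaps that of H2AC6 on the other strand.
H2AC6 (chr6:26123922-26124171, plus strand): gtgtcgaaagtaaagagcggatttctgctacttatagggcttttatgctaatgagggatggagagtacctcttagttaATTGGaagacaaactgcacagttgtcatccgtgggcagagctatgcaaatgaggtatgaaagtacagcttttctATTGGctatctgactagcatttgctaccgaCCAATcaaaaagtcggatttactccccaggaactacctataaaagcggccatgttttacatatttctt
H2BC12 (chr6:27146859-27147108, minus strand): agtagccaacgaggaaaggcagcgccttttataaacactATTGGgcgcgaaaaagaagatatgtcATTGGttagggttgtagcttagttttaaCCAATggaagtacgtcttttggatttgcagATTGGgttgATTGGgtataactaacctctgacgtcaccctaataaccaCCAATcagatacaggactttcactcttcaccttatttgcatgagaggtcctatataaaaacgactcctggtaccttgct
H2BC21 (chr1:149886683-149886932, minus strand): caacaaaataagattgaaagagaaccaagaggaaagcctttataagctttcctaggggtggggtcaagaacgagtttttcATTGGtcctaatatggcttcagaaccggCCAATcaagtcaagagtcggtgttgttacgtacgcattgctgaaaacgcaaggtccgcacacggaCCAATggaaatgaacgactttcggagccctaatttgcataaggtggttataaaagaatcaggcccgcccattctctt
H2AC6 and H2BC21 held 3 matches each and H2BC12 held 6. In the window from 250 bases before to 50 after the start, all 9 raised histone genes had a match, as did 11 of 17 histone genes with a promoter sequence that were not called and not the 1 that fell. Across all 27305 promoters of that length 35.7% held CCAAT or ATTGG, and the share was 32.4% of the promoters of genes that rose and 39.8% of those that fell. AGGTCA, the core motif of nuclear receptors, was in 7.87% of promoters of raised genes, 13.6% of lowered genes, 9.60% of all genes tested and 13.9% of all promoters. TGANTCA, the AP-1 motif, was in 6.02%, 3.98%, 4.62% and 7.76% of the same sets, CACGTG, an E-box, in 7.87%, 10.8%, 10.6% and 7.44%, and GTGGGAA, the RBPJ motif, in 6.48%, 4.55%, 5.80% and 6.28%. The motifs were searched on both strands, and a promoter sequence was found for 216 of 291 raised and 176 of 225 lowered genes. A match is a run of letters and not a bound site.

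The glycoprotein hormone beta genes, which sit side by side and are normally active in placenta and pituitary, gave 3 rises in 3 genes tested, beside 2.97% of all genes. CGB5, a chorionic gonadotropin beta gene, was 6.54 and 6.52 in siCtl and 8.07 and 7.77 in siNCoR arrays (difference 1.39 ± 0.11, adjusted p = 6.04e-05). CGB1, its close copy, was 6.88 and 6.90 in siCtl and 8.13 and 7.92 in siNCoR arrays (difference 1.13, adjusted p = 7.04e-05), and LHB, luteinizing hormone beta, was at least 1.07-fold higher, with both siCtl arrays under the floor (5.50 and 5.18 in siCtl and 6.39 and 6.36 in siNCoR arrays). The copies are nearly identical, so 1 transcript could light several of these probes. The siSMRT arrays of CGB5 were 6.52 and 6.56, level with the siCtl arrays. This family too was picked after its values were seen.

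**Figure D3:**
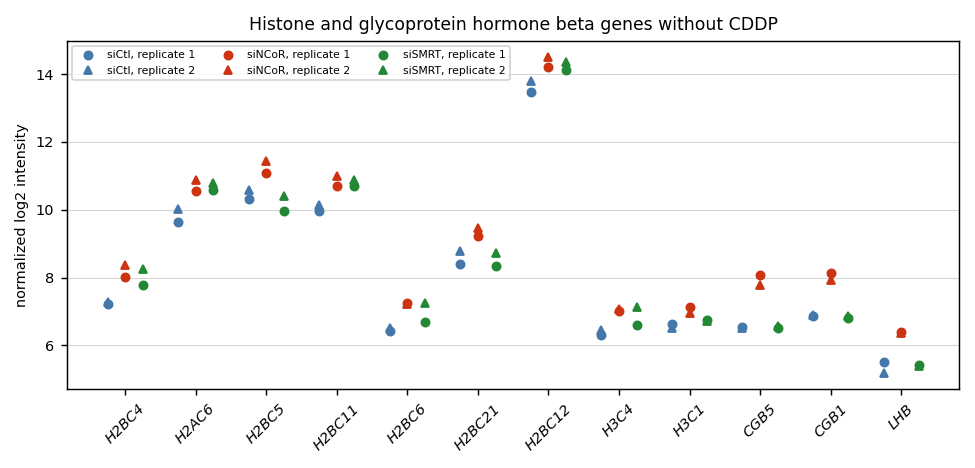
Normalized log2 intensity in each array without CDDP for the 9 raised histone genes and the 3 hormone beta genes, with siCtl, siNCoR and siSMRT side by side. For CGB5, CGB1 and LHB the siNCoR arrays stand alone, and for H2BC4 and H2AC6 the siSMRT arrays lie close to them.

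Genes of mitosis had differences of 1 sign, although few passed the test. All 34 listed G2/M genes were tested and all 34 had a negative difference, with a median of -0.23, whereas 4955 of the 9808 genes were negative. Their mean log2 level was 11.33 and 11.23 in the siCtl arrays and 11.07 and 11.02 in the siNCoR arrays. Of the 34, 3 passed the test as lower, or 6 with the block, beside 2.29% and 4.53% of all genes. KIF20A, a kinesin needed to complete cytokinesis, was 11.60 and 11.50 in siCtl and 10.98 and 11 in siNCoR arrays (difference -0.56 ± 0.09, adjusted p = 0.00432). CDC25B, a phosphatase that starts mitosis, and UBE2C, an enzyme of the anaphase-promoting complex, differed by -0.36 and -0.35 (adjusted p = 0.0365 and 0.049). The promoter of CDC25B held 0 matches to CCAAT or ATTGG, and 37.6% of the promoters of all genes tested held at least 1. The promoter of KIF20A, the clearest of the 3 calls, carries 2 matches, in capitals as above.
KIF20A (chr5:138178862-138179111, plus strand): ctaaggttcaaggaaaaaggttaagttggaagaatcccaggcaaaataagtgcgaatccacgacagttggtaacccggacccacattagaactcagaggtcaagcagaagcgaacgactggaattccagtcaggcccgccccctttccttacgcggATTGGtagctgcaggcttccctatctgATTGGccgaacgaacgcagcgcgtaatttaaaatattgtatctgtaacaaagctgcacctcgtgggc
Leaving out siCtl replicate 1, siCtl replicate 2, siNCoR replicate 1 or siNCoR replicate 2 left 1 call in each case, with 30, 33, 34 and 32 of the 34 differences negative. Of 31 G1/S and replication genes 28 were negative (median -0.12) and 2 fell, beside 2.29% of all genes. These were CCNE1, which encodes cyclin E1 (11.97 and 12.03 in siCtl and 11.52 and 11.41 in siNCoR arrays, difference -0.53, adjusted p = 0.00965), and PCNA, the sliding clamp of DNA polymerase (12.74 and 12.79 in siCtl and 12.37 and 12.29 in siNCoR arrays, difference -0.43, adjusted p = 0.0261).

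Of 12 listed cell cycle inhibitors, pocket proteins and cyclin D partners, 3 fell and none rose, beside 2.29% and 2.97% of all genes: CDKN1B, the CDK inhibitor p27 (10.67 and 10.60 in siCtl and 10.15 and 10.20 in siNCoR arrays, difference -0.46, adjusted p = 0.0149), RBL2, the pocket protein p130 (difference -0.54, adjusted p = 0.0166), and CDK6, a cyclin D kinase (difference -0.46, adjusted p = 0.0475). None of the 3 passed without siCtl replicate 1, siNCoR replicate 1 or siNCoR replicate 2, and CDK6 did not pass without siCtl replicate 2 either. Of 23 p53 target genes, only FBXW7, a ubiquitin ligase subunit that degrades cyclin E, was called (8.87 and 9.10 in siCtl and 8.44 and 8.52 in siNCoR arrays, difference -0.50, adjusted p = 0.0306), and its 2 other probes gave -0.05 and -0.55. The 1 fall among the 23 p53 targets stands beside 2.29% of all genes. The 19 pro-apoptotic and 9 anti-apoptotic genes tested gave no call, or 1 rise among the former with the block.

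The circadian clock is a feedback loop in which REV-ERB receptors use NCoR to repress BMAL1, and PER and CRY proteins inhibit CLOCK. Of 13 clock genes tested 12 had a negative difference (median -0.24), and 2 fell, PER2 and PER3, beside 2.29% of all genes. The exception in sign was BMAL1, at 8.25 and 7.92 in siCtl and 8.48 and 8.51 in siNCoR arrays (difference 0.41 ± 0.13, adjusted p = 0.0916, or 0.0345 with the block). PER2 was 8.98 and 9.15 in siCtl and 8.37 and 8.61 in siNCoR arrays (difference -0.58 ± 0.12, adjusted p = 0.0153) and PER3 was 8.72 and 8.34 in siCtl and 7.98 and 8.14 in siNCoR arrays (difference -0.47 ± 0.12, adjusted p = 0.0482). CRY1 had a difference of -0.34 and did not pass (adjusted p = 0.069, or 0.0396 with the block). With the block 1 of the 13 rose and 3 fell, beside 5.56% and 4.53% of all genes. Of the 2 that fell PER3 was the weaker, its second siCtl array lying close to its second siNCoR array. The mean log2 level of the 13 genes was 8.50 and 8.41 in siCtl and 8.22 and 8.24 in siNCoR cells, and 8.20 and 8.30 in siSMRT cells. With 1 array left out, 1 of the 13 was called, or none without siNCoR replicate 1.

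No target gene of the thyroid hormone and retinoic acid receptors, which use NCoR, passed as higher. Of 7 thyroid hormone and retinoid target genes tested, 6 were negative, the median was -0.50 and 1 fell. DHRS3, which reduces retinal back to retinol, was 7.85 and 7.86 in siCtl and 7.36 and 7.34 in siNCoR arrays (difference -0.51 ± 0.10, adjusted p = 0.0166). With the block 5 of the 7 fell, beside 4.53% of all genes. KLF9, a thyroid hormone-responsive factor, was 10.77 and 10.74 in siCtl and 10.07 and 10.21 in siNCoR arrays (difference -0.62, adjusted p = 0.0792, or 0.015 with the block), and TGM2, a retinoid-induced transglutaminase, was 10.51 and 11.26 in siCtl and 10.10 and 10.61 in siNCoR arrays (difference -0.53, adjusted p = 0.282, or 0.0124 with the block). The replicates of TGM2 lay far apart in both groups, and both of its same-numbered pairs had a negative difference. None of the 7 was called when any 1 array was left out. Among 15 nuclear receptor genes PPARG, the fat cell receptor, rose (11.10 and 11.09 in siCtl and 11.51 and 11.49 in siNCoR arrays, difference 0.40, adjusted p = 0.0188) and NR2C1, the orphan receptor TR2, fell (8.40 and 8.27 in siCtl and 7.82 and 8.04 in siNCoR arrays, difference -0.41, adjusted p = 0.0379), although the 3 other probes of NR2C1 gave -0.07, 0.03 and 0.07. Of 15 PPAR and LXR targets only FABP5, a fatty acid carrier, rose (10.93 and 11.02 in siCtl and 11.43 and 11.39 in siNCoR arrays, difference 0.43, adjusted p = 0.0191). With the block 1 of these 15 rose and 2 fell, beside 5.56% and 4.53% of all genes. Without the block the counts in this paragraph stand beside 2.97% of all genes higher and 2.29% lower.

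**Figure D4:**
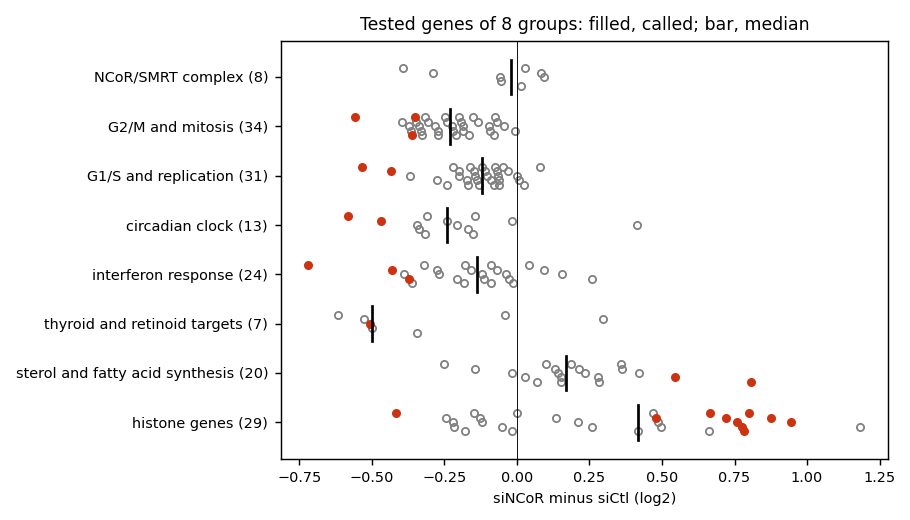
Difference siNCoR minus siCtl (log2) for every tested gene of 8 groups, filled where the gene passed the test, with a bar at the group median. The mitosis genes lie entirely below 0, as do the clock genes except BMAL1 at 0.41, and the histone genes spread from -0.42 to 1.18.

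Of 20 cholesterol and fatty acid synthesis genes 17 were positive (median 0.17) and 2 rose, or 4 with the block, beside 2.97% and 5.56% of all genes. HMGCS1, which makes HMG-CoA, was 9.56 and 9.33 in siCtl and 10.28 and 10.21 in siNCoR arrays (difference 0.81 ± 0.11, adjusted p = 0.00171), and SQLE, squalene epoxidase, was 10.24 and 10.21 in siCtl and 10.95 and 10.59 in siNCoR arrays (difference 0.54 ± 0.13, adjusted p = 0.0336). LSS and SC5D, later enzymes of the same route, had differences of 0.36 and 0.42 and did not pass (adjusted p = 0.0954 and 0.084, or 0.0289 and 0.0474 with the block). Without siNCoR replicate 1 the positive count fell to 13 of 20 and the median to 0.09.

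Of 24 interferon-responsive genes 20 were negative (median -0.14) and 3 fell, or 5 with the block, beside 2.29% and 4.53% of all genes. IRF9, the DNA-binding part of the interferon-activated complex ISGF3, was 9.10 and 9.01 in siCtl and 8.60 and 8.64 in siNCoR arrays (difference -0.43 ± 0.09, adjusted p = 0.0161). IFI44L, an interferon-induced gene, was at least 1.45-fold lower (6.97 and 6.66 in siCtl and 6.24 and 5.94 in siNCoR arrays, adjusted p = 0.0298), and IFITM2, which blocks virus entry, differed by -0.37 (adjusted p = 0.049). ISG15, a ubiquitin-like interferon product, was 8.39 and 8.43 in siCtl and 8.38 and 8.41 in siNCoR arrays and differed by -0.01. No interferon gene was called without siCtl replicate 1 or without siNCoR replicate 1. Of 12 NF-kB targets IL1A, the cytokine interleukin 1 alpha, rose (5.12 and 5.31 in siCtl and 5.96 and 6.07 in siNCoR arrays, difference 0.80, adjusted p = 0.00125), although all 4 of its arrays were under or near the floor and no fold is given. The 1 rise of 12 NF-kB targets stands beside 2.97% of all genes. With the block 1 of these 12 rose and 1 fell, beside 5.56% and 4.53%. The 24 immediate-early genes gave no call, or 1 rise and 1 fall with the block.

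Of 27 collagen and matrix genes LOX, which crosslinks collagen, rose (9.11 and 9.12 in siCtl and 10.04 and 10.19 in siNCoR arrays, difference 1.0 ± 0.14, adjusted p = 0.00182), as did the laminin chains LAMA1 and LAMC1 by 0.53 and 0.46. The median of the 27 was -0.04, and with the block 4 rose and 4 fell. The counts in this paragraph stand beside 2.97% of all genes higher and 2.29% lower, or 5.56% and 4.53% with the block. TAGLN, the smooth muscle actin-binding protein transgelin, was 11.10 and 11.40 in siCtl and 12.19 and 12.10 in siNCoR arrays (difference 0.90 ± 0.11, adjusted p = 0.00122), the 1 call of 20 actin genes. With the block 1 of the 20 rose and 2 fell. CRYAB, a small heat shock protein, rose by 0.77 and its neighbour HSPB2 by 0.79, the latter named after its values were seen. HSPA5, the main chaperone of the endoplasmic reticulum, and SLC7A5, an amino acid transporter, rose by 0.41 and 0.47 (adjusted p = 0.0367 and 0.0307). BMP4, a bone morphogenetic protein, fell by 0.51, and CBX7, a Polycomb subunit, by 0.44. The genes for cytosolic ribosomal proteins, the proteasome, oxidative phosphorylation, glycolysis and hypoxia, metallothioneins, NRF2 and glutathione, WNT, TGF-beta, AP-1 target proteases and integrins gave no call in 4 to 31 genes tested per list. With the block some of these lists had up to 3 calls.

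Markers of other cell types were also among the calls, to be read beside 2.97% of all genes higher and 2.29% lower. Of 7 blood cell markers tested LCP1 and CD3D, a T cell receptor chain (6.44 and 6.53 in siCtl and 7.20 and 7.28 in siNCoR arrays, difference 0.76), rose, while the other 5 did not pass and the median of the 7 was 0.02. Their summed linear signal, whose rise came mainly from LCP1, was 1103 to 1110 in siCtl and 1590 to 1983 in siNCoR arrays. PTPRC, HBB, SPI1 and ITGAM were among the markers not tested, being under the floor or unnamed. Of 7 neural markers STMN2 and NEFL rose by 1.44 and 0.70, L1CAM rose and SNAP25, a synaptic fusion protein, fell by 0.44. Their sum was 5969 to 6668 in siCtl and 6864 to 6872 in siNCoR arrays. L1CAM, a neural adhesion protein, was dim and at least 1.27-fold higher, but its other probe had a difference of 0.00 and it lost its call without any 1 of the 4 arrays. Of 5 epithelial markers EPCAM, an epithelial adhesion protein, rose (8.46 and 8.60 in siCtl and 9.06 and 9.31 in siNCoR arrays, difference 0.65, adjusted p = 0.00522) and all 5 were positive, with sums of 13757 to 14582 and 15612 to 15889, while CDH1, KRT5, KRT14, KRT17 and KRT19 were not tested. Bone markers split, SPP1 rising and RUNX2 at least 1.28-fold lower (6.67 and 6.58 in siCtl and 6.02 and 6.17 in siNCoR arrays, adjusted p = 0.0101), with sums of 3380 to 3526 and 3645 to 3651. Of the listed endothelial and muscle markers only 2 were tested, the endothelial genes PECAM1 and VWF, and neither was called. No listed muscle marker was tested, all being under the floor. MYL2 and TAGLN, which rose, were not on that list. The part of other cells in these values was not tested.

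Among families picked by symbol after the values were seen, 3 of 11 keratin genes rose, or 6 with the block, beside 2.97% and 5.56% of all genes. The 3 were KRT34, KRT75, a hair follicle keratin (7.78 and 7.82 in siCtl and 9.18 and 9.20 in siNCoR arrays, difference 1.39, adjusted p = 7.42e-05), and KRT222 (difference 0.74). Of 8 tight junction genes CLDN1 and CGN, the junction plaque protein cingulin (difference 0.68), rose, beside 2.97% of all genes. RAB GTPases, which direct vesicle traffic, gave 2 rises and 5 falls of 44, beside 2.97% and 2.29% of all genes. RAB31, of the endosomal route, was 12.82 and 12.91 in siCtl and 12.20 and 12.21 in siNCoR arrays (difference -0.66 ± 0.10, adjusted p = 0.00444), RAB8B, RAB22A and RAB2A differed by -0.63, -0.52 and -0.39, and RAB27A was at least 1.45-fold lower. The other probe of RAB2A gave 0.06. RAB23 and RAB32 rose by 0.40 and 0.41.

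The level of the called genes depended on the arrays it was read from. On the siCtl arrays with CDDP, which enter neither group mean of the contrast, the median level was 8.13 for raised and 9.09 for lowered genes, against 8.69 for all genes. On the siNCoR arrays with CDDP it was 8.64 and 8.60, so no order of brightness is read from these levels. In 31 of the 291 raised and 15 of the 225 lowered genes the dimmer group was under the floor on both arrays.

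The same knock-down was measured again in cells treated with CDDP, on 4 arrays that enter neither group mean of the comparison above. They share its normalization, probe filter and estimate of the spread, so the 2 comparisons are not fully independent. There 343 genes were higher (3.5%) and 304 lower (3.1%) in siNCoR than in siCtl cells, 6.6% in all, or 640 and 617 with the block (6.53% and 6.29%). Of the 291 genes raised without CDDP, 288 had a positive difference with CDDP and 180 passed (61.9%), with a median of 0.49. Of the 225 lowered genes, 218 were negative and 120 passed (53.3%), with a median of -0.43, and none of the 516 passed in the opposite direction. Over all genes 70.2% had the same sign in both settings, and the differences correlated across the 9808 genes at 0.71, where genes are not independent and arrays share replicate numbers. Most of the largest changes recurred: DEFB103B differed by 2.51, GSG1 by 1.76, CST6 by 1.78, AFP by 1.71, MTX2 by -1.43 and USP48 by -1.46 with CDDP. Of the 30 genes 7 did not pass with CDDP. ID2, IGFBP5 and C5orf46 had differences of -0.24, -0.49 and -0.38 there, also not passing with the block. SBSPON, HSD17B3 and KRT34 had differences of -0.43, -0.65 and 1.30 and passed with the block (adjusted p = 0.0185, 0.0119 and 0.00108). HS3ST3A1 was under the floor in both groups with CDDP. Among histone genes 8 rose with CDDP and the median was 0.41, and CGB5 and CGB1 rose by 1.36 and 1.07, while LHB was at least 1.52-fold higher, its siCtl arrays being under the floor. The medians of the mitosis and clock lists were -0.20 and -0.24.

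**Figure D5:**
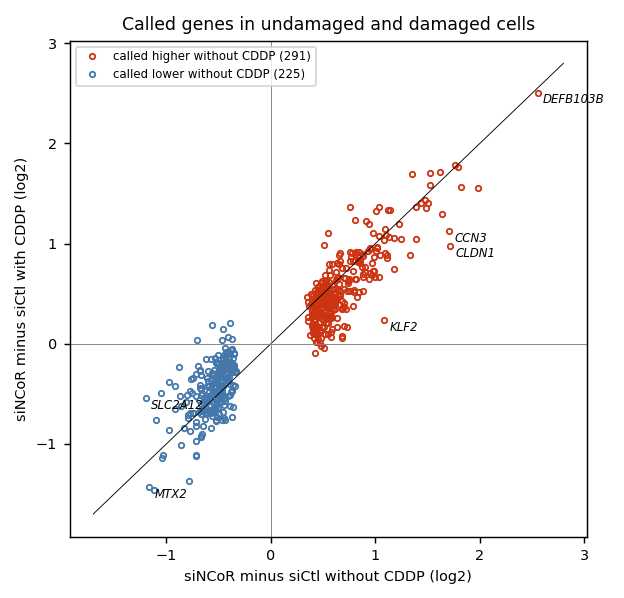
Difference siNCoR minus siCtl (log2) with CDDP against that without, for the 516 genes called without CDDP, with the line of equal values. Genes called without CDDP lie on average nearer to 0 with CDDP, 209 of the 291 raised and 157 of the 225 lowered genes having the smaller difference there.

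The change in the effect was tested directly and no gene passed (limma, adjusted p under 0.05, 0.0% of 9808 genes, and 0 with the block). An unadjusted p under 0.05 was found for 472 genes, or 777 with the block. If no effect changed, a share of about 0.05 of the genes would have such a p. The 472 are not above that share and the 777 are. The genes below had the smallest interaction p among called genes, and none passed. Since the 516 genes were chosen for a large difference without CDDP, a smaller value on other arrays can follow from the choice. KLF2, a flow-responsive transcription factor, was 10.19 and 10.38 in siCtl and 11.26 and 11.47 in siNCoR arrays (difference 1.08 ± 0.13). Its difference with CDDP was 0.24, and the estimated change of -0.85 ± 0.19 did not pass (adjusted p = 0.976). The estimated change was -0.58 for CCN3 and -0.62 for CSPG4, a cell surface proteoglycan, and did not pass either (adjusted p = 0.976 for both). TMEM71 was at least 1.32-fold higher without CDDP and at least 1.36-fold higher with it, its siCtl arrays being under the floor in both settings. IPP, METTL23 and IER5L, lower without CDDP by 0.57, 0.39 and 0.46, had differences of 0.19, 0.21 and 0.14 with CDDP. The other probe of METTL23 had a difference of 0.14 without CDDP, opposite in sign to the probe used.

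Knock-down of NCoR was set against that of SMRT directly, as both proteins share the complex. Without CDDP 1031 genes were higher (10.5%) and 819 lower (8.35%) in siNCoR than in siSMRT cells. The block gave 1371 higher (14%) and 1234 lower (12.6%). That test shares the siNCoR arrays with the comparison above, so the 516 genes were read on the CDDP arrays. There, siNCoR was higher than siSMRT in 131 of the 291 raised genes (45%, against 8.91% of all genes) and lower in 107 of the 225 lowered genes (47.6%, against 7.27%), with 5 and 1 genes the other way. The siSMRT cells differed from siCtl without CDDP in 712 higher (7.26%) and 837 lower genes (8.53%). On the CDDP arrays siSMRT was higher than siCtl in 89 of the 291 raised genes (30.6%, against 7.88%) and lower in 24 (8.25%, against 9.39%). It was lower in 40 of the 225 lowered genes (17.8%, against 9.39%) and higher in 16 (7.11%, against 7.88%).

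Several genes differed between the knock-downs on both sets of arrays. CGB5 was 1.38 ± 0.11 above siSMRT without CDDP and 1.36 above it with CDDP (adjusted p = 2.24e-05 and 2.66e-05). SPP1 was 9.23 and 9.06 in siNCoR arrays against 7.08 and 6.67 in siSMRT arrays, a difference of 2.27 (adjusted p = 2.84e-05), and STMN2 differed by 1.84. The siCtl arrays of SPP1, at 7.86 and 7.43, lay between them. HSPA5 was 8.56 and 8.70 in siSMRT arrays, against 10.15 and 10.20 in siNCoR arrays (difference 1.55, adjusted p = 6.41e-06). ESYT2, a membrane contact protein, and REEP5, which shapes the endoplasmic reticulum, were higher in siNCoR by 1.52 and 1.58. For CGB5, SPP1 and STMN2 the larger part of the gap lay in the siNCoR cells. For HSPA5, ESYT2 and REEP5 the larger part lay in the siSMRT cells. Against siCtl, HSPA5, ESYT2 and REEP5 differed by -1.13, -1.07 and -1.06 in siSMRT cells, and by 0.41, 0.45 and 0.52 in siNCoR cells.

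In the other direction DHRS3 was 9.12 and 8.82 in siSMRT arrays, far above its siNCoR level (difference -1.62 ± 0.10, adjusted p = 5.95e-06). APOBEC3B, a DNA cytosine deaminase, was 10.71 and 10.42 in siCtl and 9.91 and 9.89 in siNCoR arrays, and 11.30 and 11.35 in siSMRT arrays (difference -1.43 from siSMRT). IL37, an anti-inflammatory cytokine, TMEM64 and MTX2 were lower than in siSMRT cells by 1.35, 1.10 and 1.05. Against siCtl, DHRS3, IL37, TMEM64 and MTX2 differed by 1.11, 0.69, 0.44 and -0.12 in siSMRT cells. In siNCoR cells they differed by -0.51, -0.67, -0.66 and -1.17. KRT75 was higher with siSMRT, at 9.81 and 9.84 (difference -0.63, adjusted p = 0.0035). For H2AC6, H2BC4, LOX, EPCAM and CRYAB the difference between the knock-downs was 0.02, 0.19, 0.20, 0.05 and 0.11 and did not pass without CDDP, with a standard error of 0.14 for LOX, which does not show that they act alike. LCP1 differed by 0.62 ± 0.22 without CDDP (adjusted p = 0.0664, or 0.0141 with the block) and by 0.72 with it (adjusted p = 0.0416). H2BC5 and H2BC21 were higher in siNCoR by 1.06 and 0.83 (adjusted p = 0.00376 and 0.00388).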

How the data were processed

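Expression was measured in U2OS cells on 12 Illumina BeadChip arrays of 48803 probes. The authors deposited the probe intensity of each array on a linear scale, with BeadStudio named in the submitters' processing notes and no normalization between arrays visible in the values, together with a table of intensity values normalized by them across arrays, which was used as an alternative. Per the methods, the latter came from Corgon with loess normalization. The version of the software and the genome build are not given in the sources used here.

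Intensities were background-corrected (normexp, offset 16), quantile-normalized and log2-transformed. A probe was kept when its signal was above 100 in both arrays of at least 1 group, a floor that stands in for detection p-values. Of all probes 27578 had 1 gene in the platform annotation, 13 had several and 21212 had none, and the brightest of a gene's probes was used, which gave 9808 genes. One linear model over the 6 groups (limma 3.58.1, R 4.3.3; no block) was fitted to log2 values, and p-values were adjusted over 9808 genes by the Benjamini-Hochberg method. Where both arrays of the dim group were below the floor, the fold is a lower bound, with log2 values at the floor set in place of dimmer ones. The number of arrays limits the precision, and the p-values measure only the spread between these arrays.

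Replicate numbers come from the titles, where the title without a number was taken as replicate 1. Same-numbered arrays deviated together from their group means in all 15 pairs of groups (r 0.20 to 0.42). The fit with the replicate number as a block is therefore printed beside many results whose call or count it changes. It is not printed beside all of them, so a count without a block value may also change with the block. Genes were named as the 15 largest called rises and falls that moved the same way in both pairs, up to 4 members of each list by p, all measured complex members, and, for the difference from siSMRT and between conditions, the 5 smallest p in each direction among called genes. Members and lists were chosen with earlier results of these data known, and 2 listed genes were matched by their current symbols (BMAL1, COXFA4) through RefSeq synonyms after the data were seen. The contrasts that involve siSMRT under CDDP were added after the data were seen. The model was tested on simulated data. Alternatives were another offset, no background correction, median scaling, the authors' values, other filters, every probe, fewer arrays, the replicate block and leaving out arrays.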

Additional observations from a re-analysis of the deposited data

Results flagged for a closer look

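For 4 genes the NCoR knock-down moved both same-numbered pairs one way without CDDP and both pairs the other way with it. The differences from siCtl with CDDP were 0.19 for IPP, 0.21 for METTL23 and 0.0696 for CLCN5, all 3 lower without CDDP, and -0.0892 for RAB11FIP5, a RAB effector that rose without it. With CDDP all 4 arrays of CLCN5 were under the floor, so its sign there has no weight, and the other probe of METTL23 had a difference of 0.14 without CDDP. The change in the effect did not pass for any of the 4 (limma interaction, adjusted p = 0.976 for each), and the 4 were named because they had some of the smallest interaction p-values among the called genes. Unnamed probes entered no comparison above. Of 2163 of these probes above the floor 49 were higher and 38 lower in siNCoR than in siCtl cells (4.02%, against 4.55% of probes with 1 gene, limma, adjusted over 14801 probes), with differences from -1.29 to 2.67 on the log2 scale.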

How the results depend on the processing

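The 103 genes named here that were called kept their direction under all 14 alternatives that refit them. In many of these it could hardly change. The block, the fits to the 4 or 6 arrays, the other filters and every probe reuse the same values, mostly of the same brightest probe. The arrays of called genes did not overlap, which also largely fixes the sign when 1 array is left out. Other probes of a gene are not counted here, and those of METTL23 and RAB2A had the opposite sign. All 103 kept their call with the replicate block, 102 with an offset of 50, without background correction or with the authors' processed values, 97 with every probe, 98 with signal above 100 in at least 1 array, 89 with the 6 arrays without CDDP, 67 with only the 4 arrays compared, and 66 with median scaling or with no filter. Only 39 kept it without siCtl replicate 1, 65 without siCtl replicate 2, 51 without siNCoR replicate 1 and 49 without siNCoR replicate 2, fits in which the lone array is assumed to vary like the other groups. Genes higher in siNCoR numbered 291 and genes lower 225, against 545 and 444 with the replicate block, 124 and 98 with median scaling, 185 and 113 without a filter (18665 genes tested), 160 and 98 with only the 4 arrays, 140 and 76 with a minimum of 1.5-fold, and 82 to 171 and 44 to 103 when 1 array was left out. Median scaling moved the median of all genes to -0.05. Under CDDP the 343 higher and 304 lower genes became 640 and 617 with the replicate block, 214 and 164 without a filter, and 138 higher with median scaling. Against siSMRT the 819 lower genes became 1234 with the replicate block, 222 with median scaling and 485 without a filter. No gene passed the interaction under any of the 8 alternatives. The causes were not tested, beyond the fewer arrays or more genes that some settings use. With 2 arrays per group small differences are not detectable, and dim genes near the floor have the least precision.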

Other observations

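A few called genes outside the naming rule, chosen after their values were seen, are given here. RHOB, a small GTPase of endosomes, was 8.59 and 8.63 in siCtl and 9.57 and 9.72 in siNCoR arrays (difference 1.04 ± 0.14 SE, limma adjusted p = 0.00171), and NOS3, the endothelial nitric oxide synthase, was at least 1.49-fold higher, its siCtl arrays being under the floor. ABCB1, the multidrug efflux pump, was 7.92 and 8.29 in siCtl and 9.14 and 9.30 in siNCoR arrays (difference 1.11, adjusted p = 0.00141) and was also higher with CDDP (0.88, adjusted p = 0.00473). Genes known from placenta and testis that rose were PSG4 by 0.54, PLAC1 by 0.45, SPANXC by 0.53, and DMRT1, a testis transcription factor, was at least 1.73-fold higher with its siCtl arrays under the floor.

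TXNIP, a glucose-responsive thioredoxin inhibitor, was 8.46 and 8.06 in siCtl and 7.19 and 7.65 in siNCoR arrays (difference -0.83, adjusted p = 0.0303), and STAT3, a cytokine-activated transcription factor, was 9.88 and 9.83 in siCtl and 9.23 and 8.99 in siNCoR arrays (difference -0.74 ± 0.10, adjusted p = 0.00148). CCNG2 and CCNI, adjacent genes for unconventional cyclins, fell by 0.67 and 0.53. Of called genes with several probes above the floor, 124 in all, none had a second probe called in the opposite direction, and in 113 all probes had the same sign.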
